A study of Mus musculus with 5 samples.

Results

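The cells described here carried transcripts of the caudal transcription factor gene Cdx2 together with those of Cdh1, the gene of the epithelial adhesion molecule E-cadherin, in cultures of mouse epiblast stem cells (EpiSCs, pluripotent cells derived from the post-implantation epiblast) that were differentiated toward mesoderm for 3 days. They were chosen by their own unique molecular identifier (UMI) counts, among barcodes with at least 2500 detected genes and at most 10% mitochondrial UMIs. A cell had to hold at least 2 UMIs of Cdx2 and at least 2 of Cdh1, none of Cdh2 (N-cadherin), at most 2 of Hand1, at most 7 of T (Brachyury) and at most 1 of Tbx6. These 6 genes therefore define the cells, and their values are given as a description only. All cultures received 8 ng/ml BMP (named BMP4 in the study's methods) and 1 µM of the GSK3 inhibitor CHIR99201 in N2B27 medium, and they differed in the dose of FGF2. The cells came from 4 libraries, 1 each with no FGF2 and with 0.75, 3 and 12 ng/ml FGF2, and a library treated with 30 nM of the FGF receptor inhibitor AZD4547 was left out of the rule. In the 4 FGF2 libraries 8952 cells were kept (10653 with the inhibitor library), of which 1103 were Cdx2+ E-cadherin+ cells by this rule and 7849 were other cells.

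E-cadherin joins neighboring epithelial cells, and its replacement by N-cadherin accompanies the epithelial-to-mesenchymal transition (EMT) by which epiblast cells leave the primitive streak as mesoderm. Cdx2 is a target of FGF, Wnt and BMP signaling that activates posterior Hox genes in the tail end of the embryo, and it also marks trophectoderm and extraembryonic ectoderm. A cell with both transcripts could thus belong to caudal epiblast, to surface ectoderm or to an extraembryonic epithelium, and the genes known for each of these tissues were examined as lists.

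The Cdx2+ E-cadherin+ cells had sums of 5584991, 14697945, 7372877 and 5249803 UMIs at 0, 0.75, 3 and 12 ng/ml FGF2. The 4 libraries held 58393453, 84046746, 66761500 and 73013019 UMIs in all deposited barcodes. The median Cdx2+ E-cadherin+ cell held 27352.5, 27036, 28173 and 29011 UMIs along the doses, and the median other kept cell 29934, 27685.5, 28599 and 27440 UMIs. Summed over the 6 pairs of libraries, 4 barcodes among the kept cells were shared between libraries. No doublet caller was applied, and 6, 9, 4 and 2 of the Cdx2+ E-cadherin+ cells (3.26, 1.80, 1.62 and 1.16%) and 118, 66, 41 and 40 of the other kept cells (7.80, 2.96, 2.18 and 1.79%) held over 60000 UMIs.

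The share of Cdx2+ E-cadherin+ cells was highest at 0.75 ng/ml FGF2 and lowest at 12 ng/ml. They were 184 of 1696 kept cells without FGF2 (10.8%, exact binomial 95% interval 9.41 to 12.4%), 499 of 2725 at 0.75 ng/ml (18.3%, 16.9 to 19.8%), 247 of 2125 at 3 ng/ml (11.6%, 10.3 to 13.1%) and 173 of 2406 at 12 ng/ml (7.19%, 6.19 to 8.30%). The intervals at 0 and 3 ng/ml overlapped and the others did not, but they cover counting error only, and with 1 library per dose no 2 doses could be tested against each other. A trend over the 4 doses was not tested. With each cell of at least 10000 UMIs thinned to that number before the rule was applied (17, 19, 10 and 9 shallower cells left out), the shares were 4.47, 7.17, 4.44 and 2.50%, and with 1 UMI of Cdx2 and of Cdh1 sufficing they were 18.1, 26.8, 16.0 and 9.77%. The highest and lowest doses were the same under both, whereas 0 and 3 ng/ml changed places.

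The shares of 3 neighboring groups were determined in the same way. Cdx2+ N-cadherin+ cells, which differ from the Cdx2+ E-cadherin+ cells in that Cdh2 had to reach 2 UMIs and Cdh1 to be 0, were 12.0, 18.9, 17.7 and 13.1% of kept cells along the doses (1410 cells), also highest at 0.75 ng/ml. Hand1-high E-cadherin+ cells, with at least 3 UMIs of Hand1 and any level of Cdx2, were 10.6, 4.33, 0.471 and 0.457% (319 cells). T-high E-cadherin+ cells, with at least 8 UMIs of T and any level of Cdx2, were 0.236, 0.661, 1.6 and 1.41% (90 cells).

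**Figure D1:**
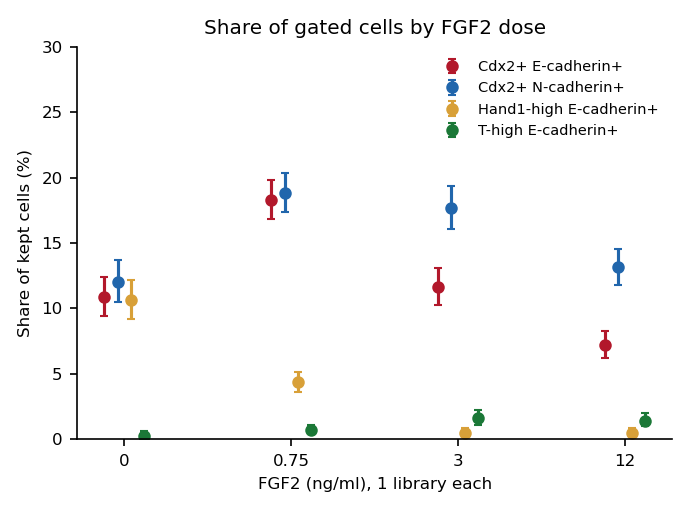
Share of kept cells (percent, y axis) in each of 4 gated groups at each FGF2 dose (ng/ml, x axis, 1 library per dose); points are shares and bars exact binomial 95% intervals, which cover counting error only. The Cdx2+ E-cadherin+ share was 18.3% at 0.75 ng/ml and 7.19% at 12 ng/ml, while the Hand1-high E-cadherin+ share went from 10.6% without FGF2 to 0.457% at 12 ng/ml.

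By the genes that chose them, the cells lay above the other kept cells in Cdx2 and Cdh1 at each dose. Cdx2 (chr5:147300805-147307270, minus strand, GRCm38) stood at 184, 216, 256 and 232 CPM (UMIs of a gene scaled to a common total of UMIs) along the doses, and at 101, 182, 214 and 181 CPM in the other kept cells, many of which also expressed it. Cdh1 (chr8:106603351-106670246, plus strand) stood at 175, 157, 146 and 149 CPM, against 84.8, 56.4, 32.4 and 30.9 CPM in the other cells. T, which was allowed up to 7 UMIs, was at 4.48, 8.91, 22.8 and 38.1 CPM, and 9.24, 14.8, 27.1 and 39.9% of the cells held a T UMI. Cells just inside and just outside the limits were alike in some genes and not in others. Epcam stood at 584 CPM in the 137 cells with 2 Cdx2 UMIs and at 602 CPM in the 178 cells that met every other criterion with 1. For Cdh1 it was 618 CPM in 265 cells with 2 UMIs and 529 CPM in 292 cells with 1. The 190 cells excluded by 1 Cdh2 UMI had 547 CPM of Epcam and 77.0 CPM of Vim, against 652 and 31.1 CPM in the Cdx2+ E-cadherin+ cells. At the Hand1 limit, 34 cells with 2 UMIs had 45.0 CPM of Vim and 23 cells with 3 UMIs had 238 CPM, while 8 cells with 7 UMIs of T had 518 CPM of Epcam and 5 cells with 8 had 395 CPM. At the Tbx6 limit 56 cells held 1 UMI and 2 cells that met every other criterion held 2.

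To find out which genes set these cells apart, their UMIs were summed per library and compared with the sum of the other kept cells of the same library, with the library as the unit. A gene was called when the adjusted p (edgeR's quasi-likelihood test, Benjamini-Hochberg adjustment) was under 0.05 and the fold at least 1.5. As the 4 libraries differ in dose, these p-values measure how evenly a difference held across doses, and nothing in the labels gives separate cultures of a dose. Of 14234 genes tested outside the 6 that define the cells, 1089 were higher (7.65%) and 956 lower (6.72%), with a median log2 fold change of -0.01. Without the 3 ng/ml library these counts were 718 and 609, and without the 0.75 ng/ml library 757 and 628.

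Other genes of epithelia were higher along with Cdh1. The rule asks for Cdh1 and for no Cdh2, and cells with N-cadherin stayed among the other kept cells. Such differences are therefore a description and not independent support for the label of an epithelial cell. The same limit holds for the epithelial regulators, for the EMT genes and for the comparison with Cdx2+ N-cadherin+ cells below. Of the list of epithelial junction and keratin genes, 22 of 25 tested (27 listed) were higher than in the other kept cells and none lower, beside the 7.65% of all genes tested, and the list's median log2 fold change was 1.33. Rab25 (chr3:88542029-88548300, minus strand), a small GTPase of apical recycling in epithelia, led the genes with at least 50 CPM. Its level was 120.3, 99.9, 91.6 and 74.5 CPM along the doses against 18.6, 18.6, 9.07 and 6.47 CPM in the other cells, so every Cdx2+ E-cadherin+ value lay above every other value (log2 fold change 2.99 ± 0.52, SD of the library differences, n = 4; adjusted p = 0.00018, edgeR). Epcam (chr17:87635979-87651129, plus strand), an epithelial adhesion molecule, was nearly constant at 645, 646, 641 and 691 CPM, against 298, 258, 179 and 179.9 CPM (1.58 ± 0.40, n = 4; adjusted p = 0.00044). The tight junction genes Cldn7 (1.88), Cldn6 (1.75) and Ocln (1.91) and the polarity gene Crb3 (1.85) were higher in 4 of 4 libraries too. The 3 tested genes of the list that were not called were Krt7, Krt19 and Lsr, at log2 fold changes of 1.07, -0.04 and 0.19.

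The simple-epithelium keratins differed from this pattern without FGF2. Krt8 (chr15:101996698-102004482, minus strand), a keratin of simple epithelia, was at 812, 1024, 1008 and 1124 CPM in Cdx2+ E-cadherin+ cells and at 825, 506, 238 and 264 CPM in the other cells. Its partner Krt18 (chr15:102028180-102032027, plus strand) was at 992, 1113, 1000.2 and 1119 CPM against 1091, 561, 227 and 239.7 CPM. Both were higher in 3 of 4 libraries and slightly lower without FGF2 (log2 fold changes 1.33 ± 1.01 and 1.34 ± 1.11, n = 4; adjusted p = 0.025 and 0.035, edgeR). Without FGF2, 180 of the 1512 other kept cells were Hand1-high E-cadherin+ cells, with 1706 CPM of Krt8 and 2272 CPM of Krt18, and their part in this overlap was not tested.

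Most promoter windows of the junction and keratin genes held the E-box CAGGTG, which reads CACCTG on the other strand. This element is known as the site of Snail and Zeb repressors. RefSeq windows of 300 bases, from 250 before to 50 after each annotated start on GRCm38.p6, were searched on both strands, and 21 of the 27 genes of the list had at least 1 window. The element was present in 20 of their 25 windows (80.0%), in 33.4% of the 1055 windows of genes called higher, in 16.4% of the 926 windows of genes called lower, in 18.4% of the windows of all genes tested and in 20.2% of all 32851 windows. Of the EMT and mesenchymal list, 2 of 14 windows held it (14.3%), and of the epithelial regulator list 2 of 6 (33.3%). Within the junction and keratin list, the windows of Cgn, Jup, Spint1 and Tjp1, all called higher, held none. The window of Lsr, which was not called, held 4 copies. Printed here, to show the element in place, is the stretch of 125 bases before a start, 5′ to 3′ on the gene's strand with the element in capitals, for the 5 genes of the list that were called higher, hold the element here and carry at most 30 bases of an annotated exon (21 bases for Rab25, 26 for F11r and 0 for the others, by GENCODE vM21): Spint2 (a membrane serine protease inhibitor, chr7:29281978-29282102, minus strand, 3 copies), Rab25 (chr3:88548280-88548404, minus strand, 2 copies), Cldn4 (a tight junction claudin, chr5:134946935-134947059, minus strand, 1 copy), Epcam (chr17:87635854-87635978, plus strand, 1 copy) and F11r (a junctional adhesion molecule, chr1:171437436-171437560, plus strand, 1 copy).
Spint2: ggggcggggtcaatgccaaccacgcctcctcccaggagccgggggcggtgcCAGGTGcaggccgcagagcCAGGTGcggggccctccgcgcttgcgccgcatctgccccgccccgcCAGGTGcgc
Rab25: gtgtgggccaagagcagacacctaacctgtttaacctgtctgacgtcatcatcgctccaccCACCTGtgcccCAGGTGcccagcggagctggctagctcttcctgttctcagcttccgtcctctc
Cldn4: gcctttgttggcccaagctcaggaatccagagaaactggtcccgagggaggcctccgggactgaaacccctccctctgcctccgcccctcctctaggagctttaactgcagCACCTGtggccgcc
Epcam: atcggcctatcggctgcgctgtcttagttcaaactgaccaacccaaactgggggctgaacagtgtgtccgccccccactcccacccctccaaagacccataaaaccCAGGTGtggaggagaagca
F11r: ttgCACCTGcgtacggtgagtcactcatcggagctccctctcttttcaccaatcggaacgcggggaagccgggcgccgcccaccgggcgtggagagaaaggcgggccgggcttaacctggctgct

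For Rab25, Cldn4, Epcam and F11r, bases just after the start were found in an annotated transcript of the gene, whereas for Spint2 they were not. Each of these 5 genes was higher in all 4 libraries, with log2 fold changes of 1.10 for Spint2, 2.99 for Rab25, 1.72 for Cldn4, 1.58 for Epcam and 1.09 for F11r. The other motifs were searched in the same way. The Grainyhead-like motif AACCNGTT was in 2.75% of windows of genes called higher and 1.84% of those tested, the AP-2 motif GCCNNNGGC in 23.1 and 25.2%, the Cdx motif TTTATNG in 7.30 and 6.55%, its stricter form TTTATTG (a part of the former's matches) in 1.61 and 2.41%, the TCF/LEF motif CTTTGAT in 2.65 and 2.55%, and the Klf motif CACCC in 70.0 and 63.7%. Windows of genes called lower held these motifs, in the same order, in 2.59, 28.0, 6.91, 1.73, 3.24 and 69.5%. In the 25 windows of the junction and keratin list, AP-2 matches were found in 11 (44.0%), Klf matches in 21 (84.0%), Grainyhead-like matches in 2 (8.0%), Cdx matches in 1 (4.0%), and the stricter Cdx and the TCF/LEF motif in none. These are matches of letters, and whether a factor bound was not measured.

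Transcription factors and splicing regulators of epithelia were higher as well, 9 of 12 tested with none lower and a median of 1.71. Grhl3 (chr4:135541888-135573630, minus strand), a Grainyhead-like factor needed for neural tube closure and surface epithelium, was at 43.9, 50.1, 48.0 and 47.4 CPM against 10.3, 13.2, 9.84 and 6.79 CPM (log2 fold change 2.29 ± 0.38, n = 4; adjusted p = 0.00017, edgeR). The levels in Cdx2+ E-cadherin+ cells hardly varied with dose and did not overlap those of the other cells, as in 11.6% of all genes tested with the Cdx2+ E-cadherin+ cells above and 15.5% with them below. Its relative Grhl2 (1.74), Ovol1 (2.71), which represses mesenchymal genes, the epithelial splicing factors Esrp1 (2.01) and Esrp2 (2.40), and Klf5 (1.14) showed the same order in 4 of 4 libraries. Trp63, the master regulator of stratified epithelium, was at 39.0, 30.2, 17.5 and 7.62 CPM against 11.2, 8.09, 1.14 and 0.549 CPM (2.60 ± 1.16, adjusted p = 0.003). Grhl1, Ovol2 and Klf4 were not called, with log2 fold changes of 1.06, 0.51 and 0.40.

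Genes of EMT and mesenchyme were lower in turn, 12 of 17 tested with none higher, beside a share of 6.72% of all genes, and the median was -1.73. Zeb1 (chr18:5591860-5775467, plus strand), a repressor of epithelial genes, was at 0.895, 0.748, 0.949 and 0.381 CPM against 17.1, 13.7, 17.1 and 19.5 CPM (log2 fold change -4.37 ± 0.62, n = 4; adjusted p = 8.7e-05, edgeR). Vim (chr2:13573927-13582826, plus strand), which encodes the intermediate filament vimentin, was at 59.6, 27.5, 21.6 and 24.4 CPM against 348, 153, 187 and 219 CPM (-2.77 ± 0.36, n = 4; adjusted p = 0.0001). In both genes the 2 groups did not overlap. Zeb2 (-2.92), Snai1 (-2.76) and Pdgfra (-2.99) were lower in 4 of 4 libraries, and Fn1, the fibronectin gene, by less (-0.85). Sparc and Col1a2, of the extracellular matrix, did not pass (-0.32 and -0.34). The list of basement membrane genes was divided, with Lama5 and Lamc1 higher and Lama1 lower of 12 tested. Without the library that had no FGF2 4 were higher, and without any other library 2 were lower.

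**Figure D2:**
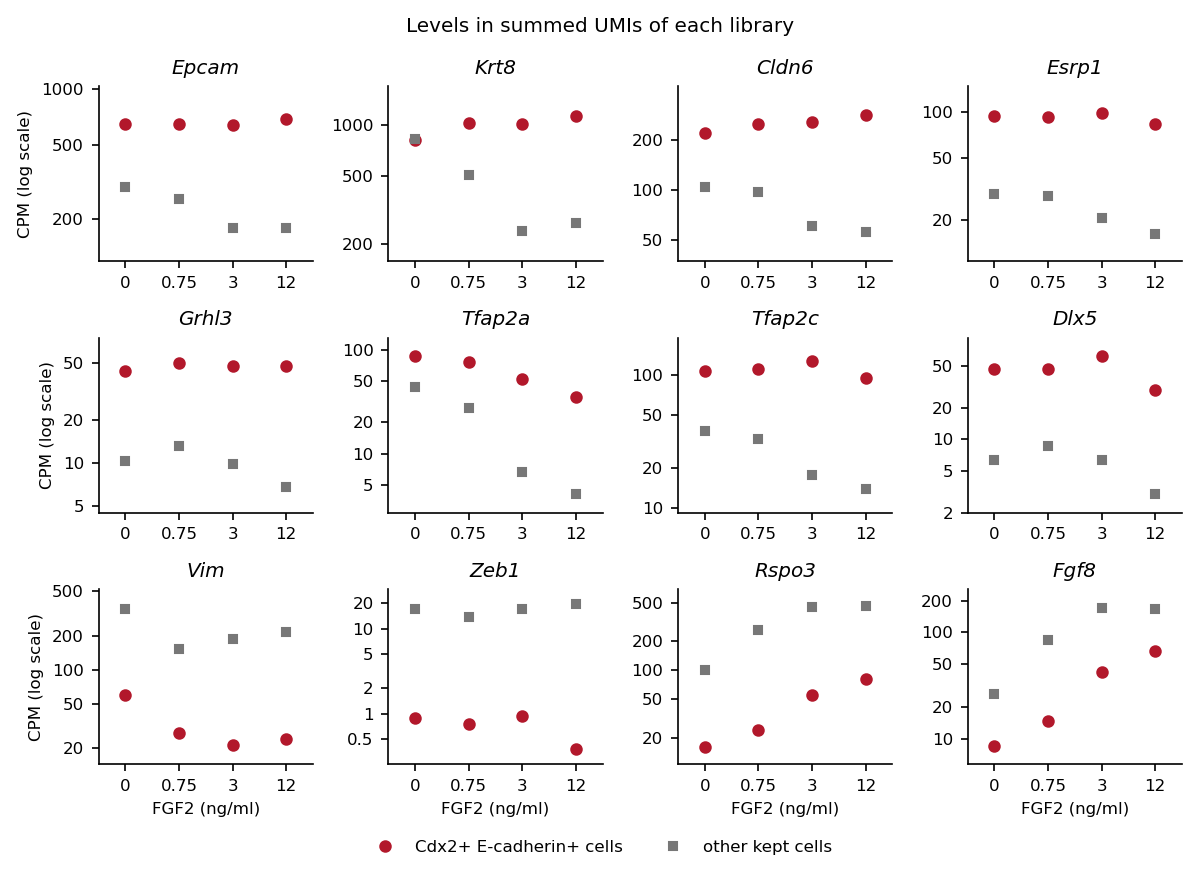
CPM on a log scale (y axis) of 12 genes at each FGF2 dose (ng/ml, x axis) in the summed UMIs of Cdx2+ E-cadherin+ cells (red circles) and of the other kept cells (gray squares), 1 point per library and group. Epcam stayed between 641 and 691 CPM in the Cdx2+ E-cadherin+ cells at all doses, while Tfap2a went from 86.8 to 35.2 CPM and Fgf8 from 8.59 to 67.1 CPM.

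Genes of surface ectoderm were among those with the largest differences. Of the 15 tested, 7 were higher (Tfap2a, Tfap2c, Dlx3, Dlx5, Dlx6, Wnt6 and Krt5) and 2 lower, Pitx1 among them, with a median of 1.43. Without any 1 of the libraries 6 to 8 were higher, and 1 at most was lower. Without the library block 4 were higher. Dlx5 (chr6:6877805-6882085, minus strand), a homeobox gene of the ectodermal border of the neural plate, was at 46.2, 46.5, 61.8 and 29.3 CPM against 6.36, 8.57, 6.34 and 2.99 CPM (log2 fold change 2.97 ± 0.41, n = 4; adjusted p = 0.00012, edgeR). Tfap2c (chr2:172549593-172558622, plus strand), an AP-2 factor of ectoderm and trophoblast, was at 107, 111, 128 and 95.8 CPM against 37.9, 32.8, 17.9 and 13.8 CPM (2.23 ± 0.69, n = 4; adjusted p = 0.00089). Neither gene's values overlapped between groups. Tfap2a (chr13:40715302-40738376, minus strand), an AP-2 factor of surface ectoderm and neural crest, was lower with each dose, at 86.8, 76.0, 51.8 and 35.2 CPM against 43.3, 27.3, 6.62 and 4.07 CPM (2.06 ± 1.06, n = 4; adjusted p = 0.0055). Here the groups overlapped between doses but not within a library. Wnt6, a ligand of surface ectoderm, was at 185, 177, 148 and 146 CPM against 119, 89.8, 38.5 and 33.7 CPM (1.43). Gata2 and Gata3, which are shared by surface ectoderm and trophoblast, were not called (0.12 and -0.07), and Foxi2 had no UMI in the cells.

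The genes of extraembryonic ectoderm and trophoblast gave a mixed picture. Of 12 tested, 7 were higher, 1 was lower (Ets2) and the median was 1.16. Without the 3 ng/ml library the counts were 3 and 0, and without the library that had no FGF2 they were 9 and 1. The higher genes included several of broader use, such as the imprinted Peg10 (339, 340.3, 315 and 316 CPM against 273, 232, 120.0 and 102 CPM) and the receptor gene Fgfr2 (log2 fold change 1.46). Elf5, which defines the trophoblast stem cell state, was called higher by edgeR (1.92) but not by DESeq2, at levels of 0.358, 0.544, 0.543 and 0.381 CPM, and 1.09, 1.40, 1.62 and 1.16% of the cells held an Elf5 UMI. Esx1, a homeobox gene of the placenta, was not called (1.01), and Rhox6 had no UMI. The list summed to 486, 471, 439.7 and 421.5 CPM along the doses, against 409, 328, 202 and 179 CPM in the other kept cells. Its most abundant gene was Peg10.

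Genes that mark the caudal epiblast and its neuromesodermal progenitors (NMPs) were mostly lower. Of 13 tested, 8 were lower, none was higher and the median was -0.99. Without the 0, the 0.75 or the 12 ng/ml library 1 was higher, and without the library block 4 were lower. Fgf8 (chr19:45736798-45742915, minus strand), the FGF ligand of the primitive streak, was at 8.59, 14.8, 42.7 and 67.1 CPM against 26.3, 84.9, 170.3 and 168 CPM (log2 fold change -1.86 ± 0.52, n = 4; adjusted p = 0.0006, edgeR). It was higher with each dose in the Cdx2+ E-cadherin+ cells and below the other cells of the same library throughout. Wnt3a (-3.33) and Cyp26a1 (-3.56), which degrades retinoic acid, were lower too. Sox2, a factor of NMPs and neural tissue that is also found in surface ectoderm, was at 29.5, 40.4, 52.9 and 33.9 CPM against 26.7, 33.5, 30.8 and 20.9 CPM, higher in 4 of 4 libraries but under the fold of 1.5 (0.50). Nkx1-2, an NMP gene, was at 2.69, 10.1, 20.6 and 22.7 CPM and not called (-0.75). Cdx1 was in too few cells to be tested, and Cdx4 had no UMI in the Cdx2+ E-cadherin+ cells.

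Genes of the primitive streak and of presomitic and somitic mesoderm were mostly lower. The rule limits T, Tbx6 and Hand1, and cells over these limits stayed among the other kept cells. Lower levels of mesoderm genes, and of the caudal epiblast and NMP genes above, are thus not independent of the rule. Of the primitive streak list 10 of 12 tested genes were lower and none higher (1 higher without the library that had no FGF2), with a median of -3.26, and Mixl1, an early streak gene, was at 0.179, 0.408, 0.814 and 1.14 CPM against 2.13, 9.46, 24.7 and 31.3 CPM. Of the presomitic and somitic list 9 of 12 were lower and 1, Pax3, higher, with a median of -2.35. Rspo3 (chr10:29452416-29535867, minus strand), an enhancer of Wnt signaling in paraxial mesoderm, was at 15.9, 24.1, 54.9 and 81.9 CPM against 101, 259, 456 and 459.9 CPM (log2 fold change -2.90 ± 0.42, n = 4; adjusted p = 0.00012, edgeR). The segmentation clock gene Hes7 was at 8.59, 15.5, 26.0 and 28.2 CPM against 31.6, 64.9, 101 and 108 CPM (-1.95), and no UMI of Msgn1, Mesp2 or Ripply2 was found in the cells. In the lateral and extraembryonic mesoderm list 3 of 12 genes were lower (Foxf1, Acta2 and Osr1) and none higher (1 higher without the library that had no FGF2). That list summed to 479.9, 289.8, 188 and 333 CPM in the Cdx2+ E-cadherin+ cells, mostly from Ahnak and Tagln, against 1076, 299.9, 119.6 and 144 CPM, so that it was below the other cells at 0 and 0.75 ng/ml and above them at 3 and 12 ng/ml.

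Blood, endothelial and endoderm markers were at low levels. Gata1, Tal1, Kdr, Cd34 and the embryonic globins Hbb-bh1 and Hba-x had no UMI in the 1103 cells, and neither had the endoderm genes Cer1, Ttr, Afp and Spink1. Foxa2, an endoderm and node factor, was found in 0, 0.2, 0.405 and 0% of the cells, and Sox17 in 2.17, 1.40, 2.02 and 2.31% of them against 4.10, 2.74, 1.49 and 1.07% of the other kept cells. The hemato-endothelial list summed to 17.4, 8.98, 7.05 and 12.8 CPM against 73.2, 27.7, 29.5 and 42.2 CPM, with Runx1 as its most abundant gene. The endoderm list summed to 26.7, 12.4, 10.2 and 10.3 CPM against 11.5, 18.8, 17.9 and 14.8 CPM, higher than in the other cells without FGF2 and lower at the other doses, with the carboxypeptidase gene Cpm as its most abundant gene. Of 4 hemato-endothelial genes tested 2 were lower (Runx1 and Lmo2), and of 3 endoderm genes 1 (Hhex), which was not called without the 0.75, 3 or 12 ng/ml library. The epiblast list was present at sums of 329.8, 409.7, 465 and 470.5 CPM against 349, 435, 449 and 439 CPM, and of 12 tested genes Dnmt3b and Otx2 were higher and Pou5f1 and Tdgf1 lower. Without the 3 ng/ml library none was higher, and without the 0.75 or the 12 ng/ml library 1 was. Of 5 primordial germ cell genes Prdm1 was higher and Prdm14 lower, the latter not without the 12 ng/ml library, and without the 0.75 ng/ml library 2 were higher. Prdm1 was not called with at least 4 UMIs of Cdx2 and Cdh1. Prdm14 was not called at 5% mitochondrial UMIs, thinned to 5000 UMIs or without the library block. Of 9 neurectoderm genes Pax7, Irx3 and Zic2 were higher and 3 were lower, Sox3 and Hes3 among them (Hes3 by edgeR alone). Without the 0.75 or the 3 ng/ml library 1 was lower. Pax7 and Pax3 are genes of the dorsal neural tube, the neural plate border and the somites, and both were higher in 4 of 4 libraries (log2 fold changes 1.68 and 1.48).

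**Figure D3:**
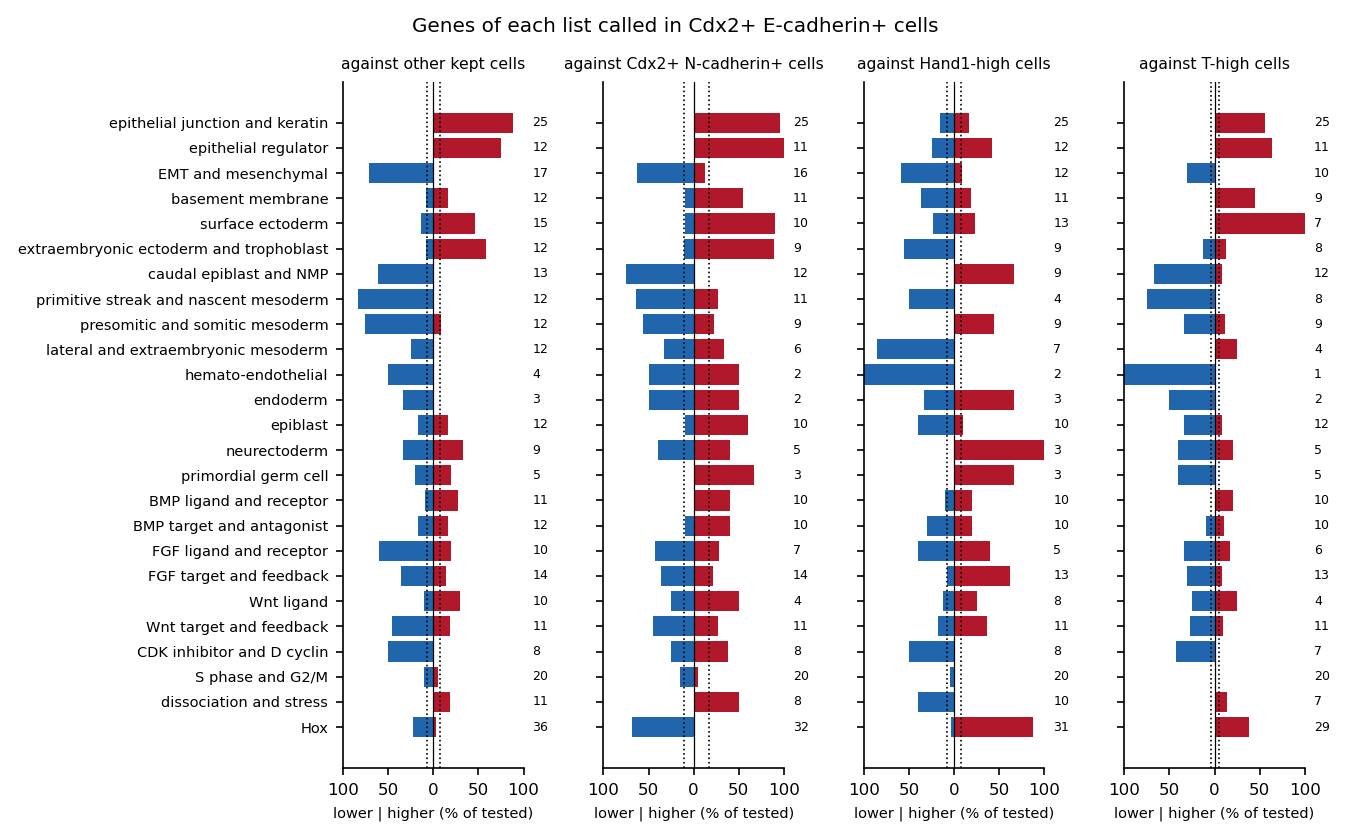
Share of the tested genes of each of 25 lists that were called higher (red, to the right) or lower (blue, to the left) in Cdx2+ E-cadherin+ cells in 4 comparisons (x axis, percent of genes tested); numbers at the right are genes tested and dotted lines the shares among all genes. Against the other kept cells, 22 of 25 junction and keratin genes were higher and 12 of 17 EMT and mesenchymal genes lower.

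Outside the lists, the 12 genes with the largest differences upward among those of at least 50 CPM also held Upk1a (chr7:30603092-30612847, minus strand), a uroplakin of urothelium and other epithelia, at 88.8, 84.8, 79.3 and 60.0 CPM against 17.0, 17.5, 9.42 and 6.68 CPM (log2 fold change 2.73 ± 0.46, n = 4; adjusted p = 0.00017, edgeR). The chemokine gene Cxcl12 (2.29), Rab15 (2.08), the channel-activating protease gene Prss8 (1.89), Daam1 (1.82), which links Wnt signaling to actin, and Apoe (1.80), which encodes a lipid carrier, completed them beside Tfap2c, Tfap2a, Esrp1, Cldn7 and Cldn6. In Apoe the difference between the groups varied least across libraries among these 12, with levels of 519, 434, 352 and 274 CPM against 136, 152, 96.9 and 78.7 CPM (SD of the library differences 0.18). The 12 genes with the largest differences downward were Sprr2a3 (-2.91), Rspo3, Vim, Hes7, Fgf8, Ccnd1 (-1.84), Limch1 (-1.81), Lrp8 (-1.80), Ccnd2 (-1.55), Lef1 (-1.51), Mycn (-1.49) and Vcan (-1.48). Sprr2a3 belongs to a family of near-identical genes among which reads cannot be divided with certainty.

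The cell cycle genes did not move as a group. Ccnd1 and Ccnd2, the D cyclins that pass growth signals on to the cycle, were lower in 4 of 4 libraries, Ccnd1 at 27.9, 32.2, 42.6 and 74.9 CPM against 109.9, 149, 180.2 and 173 CPM, and Ccnd2 at 59.6 to 153 CPM against 188 to 368 CPM. The inhibitor genes Cdkn2a (-1.83) and Cdkn2b (-1.58) were lower as well, Cdkn2a with 11.3, 3.95, 1.22 and 4.76 CPM against 62.5, 10.2, 8.05 and 9.34 CPM. Of 20 S phase and G2/M genes 17 were not called. Mki67, the gene of the Ki-67 antigen, was higher (0.64), and Rrm2 and Ccne1 were lower, Rrm2 not without the library that had no FGF2. Of 11 genes of dissociation and stress 2 were higher (Junb and Jund), but 5 without the library that had no FGF2 and 0 without any other library.

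Genes of the 3 pathways given to the cultures were then examined by role. Among BMP ligands and receptors (11 tested) Bmp2, Bmp5 and Bmp7 were higher and Bmpr1b was lower. Bmp5 stood at 13.4, 19.7, 21.0 and 10.5 CPM against 3.05, 6.27, 4.91 and 2.12 CPM (log2 fold change 2.04 ± 0.28, n = 4; adjusted p = 0.00021, edgeR) and Bmp7 at 34.4, 35.9, 41.0 and 35.8 CPM against 22.0, 24.3, 20.9 and 19.2 CPM (0.79). Bmp4 was at 59.4, 76.9, 72.7 and 88.2 CPM against 78.0, 53.9, 40.6 and 38.6 CPM, lower than in the other cells without FGF2 and higher at the other doses, and was not called (0.57). Of 12 BMP targets and antagonists, Msx1 (0.93) and Bambi (0.81) were higher and Nog and Smad9 lower (Smad9 by edgeR alone), while Id1, Id2 and Id3 were under the fold of 1.5 (-0.50, 0.22 and -0.08). Without the 0.75 ng/ml library Bmpr1b, Nog and Smad9 were not called, and without the 0 or the 12 ng/ml library 1 of the targets and antagonists was lower. Without the 12 ng/ml library 2 BMP ligands and receptors were lower.

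Of the FGF ligands and receptors, 6 of 10 tested were lower and 2 higher (1 higher without the library that had no FGF2). The ligand genes Fgf3 (-4.40) and Fgf15 (-4.34) were lower, at no more than 1.71 and 0.612 CPM in the Cdx2+ E-cadherin+ cells. Of the receptor genes, Fgfr1 was at 38.5, 44.3, 39.1 and 49.1 CPM against 67.5, 63.8, 64.8 and 74.1 CPM (-0.63), whereas Fgfr2, of epithelia and listed above with trophoblast, was at 21.7, 18.5, 11.7 and 6.10 CPM against 13, 7.38, 2.80 and 1.6 CPM (1.46). The feedback genes were divided, with 2 of 14 higher (1 without the 0 or the 3 ng/ml library) and 5 lower. Spry1 was at 20.9, 32.0, 35.4 and 38.5 CPM against 11.5, 12.2, 8.53 and 8.90 CPM (1.64) and Dusp6, the ERK phosphatase gene, was higher by 0.62, while the Pea3 factors Etv4 (-0.76) and Etv5 (-0.70) were lower.

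Among Wnt genes, the ligand Wnt4 was at 206, 159, 120.0 and 113 CPM against 126, 63.0, 28.8 and 25.2 CPM (1.57), Wnt10a and Wnt10b were higher and Wnt5b was lower (-1.22) of 10 tested. Without the library that had no FGF2 2 ligands were lower. Axin2, a general readout of canonical Wnt signaling, was at 69.8, 91.5, 80.0 and 76.6 CPM against 67.8, 91.8, 91.4 and 69.1 CPM and was not called (0.02). Other targets were lower, 5 of 11 with 2 higher (Rnf43 and Kremen1), among them Lef1 (-1.51), Nkd1 (-1.53), Notum (-0.77) and Dkk1 (-2.16).

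Cdx2+ N-cadherin+ cells allowed a comparison between cells of like Cdx2 criterion and opposite cadherin. Of 11917 genes tested, 1967 were higher in the Cdx2+ E-cadherin+ cells (16.5%) and 1271 lower (10.7%). All 11 epithelial regulators, 24 of 25 junction and keratin genes and 9 of 10 surface ectoderm genes were higher (Gata3 by edgeR alone), with Pitx1 as the surface ectoderm gene that was lower. Krt8 stood at 50.9, 33.3, 22.6 and 33.4 CPM in the Cdx2+ N-cadherin+ cells (log2 fold change 4.89 ± 0.63, n = 4; adjusted p = 1.6e-09, edgeR), and Tfap2a at 10.9, 5.72, 1.48 and 1.08 CPM (3.86 ± 1.01). The 6 genes with the largest differences upward were Rab25 (6.75), the metallothionein gene Mt2 (5.13), Cldn7 (4.99), Upk1a (4.93), Krt8 and Krt18 (4.55), and those downward were the carbonic anhydrase gene Car14 (-4.22), Rspo3 (-3.17), Hes7 (-2.51), the ephrin receptor gene Epha5 (-2.43), Ccnd1 (-2.28) and Limch1 (-2.15). Mt2 stood at 326, 337, 270.0 and 182 CPM against 10.4, 8.86, 7.22 and 6.25 CPM and Car14 at 2.15, 3.06, 4.75 and 7.24 CPM against 58.1, 77.6, 85.1 and 80.7 CPM, with no overlap in either, as in 23.9% of all genes with the Cdx2+ E-cadherin+ cells above and 25.2% with them below. Some directions differed from those against all other kept cells. The matrix genes Sparc (1.23) and Col1a2 (1.06), the Nodal pathway genes Nodal (2.72) and Lefty2 (2.26) and the inhibitor gene Cdkn2a (2.87) were higher than in the Cdx2+ N-cadherin+ cells. Caudal epiblast and NMP genes were lower, 9 of 12 (Nkx1-2 by edgeR alone), while Sox2 was not called (0.19), at 56.0, 43.5, 27.9 and 18.4 CPM in the Cdx2+ N-cadherin+ cells.

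Hox genes, whose paralog groups are activated in order along the body axis, gave an uneven result. Against all other kept cells, 1 of 36 was higher (Hoxa7, chr6:52214491-52221854, minus strand, log2 fold change 0.92) and 8 were lower. All 8 belonged to paralog groups 1 to 4 (12 tested, median -0.67), and of the 13 genes of groups 9 to 13 none was called. Without the 3 ng/ml library 5 Hox genes were lower, and without the 0.75 ng/ml library 6. Against the Cdx2+ N-cadherin+ cells 22 of 32 were lower and none higher (18 by DESeq2 too, without Hoxa6, Hoxa10, Hoxa11 and Hoxd11), 11 of 12 in groups 1 to 4 (median -1.37), 4 of 11 in groups 5 to 8 (-0.38) and 7 of 9 in groups 9 to 13 (-0.70). This division of the clusters was chosen after the values were seen. Hoxb1 was at 0, 0.476, 1.09 and 1.14 CPM against 2.88, 4.70, 8.01 and 9.98 CPM in those cells (-3.19), and Hoxb9 at 160.1, 188, 241 and 218 CPM against 387, 437, 394 and 333 CPM (-0.93). Hoxa7 was not called (0.07), at 150.2, 161, 187 and 179 CPM against 176, 207, 166 and 112 CPM, lower than in those cells at the first 2 doses and higher at the others.

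Among the neighboring groups gated here, Hand1-high E-cadherin+ cells were the larger E-cadherin+ group at low FGF2. The libraries without FGF2 and with 0.75 ng/ml held enough of them (at least 20 cells). The median Hand1-high cell held 39282 and 32542 UMIs in these libraries, more than the Cdx2+ E-cadherin+ cells. With 2 libraries the fit has 1 residual degree of freedom, and DESeq2 called 328 genes higher and 440 lower where edgeR called 857 (7.29%) and 979 (8.32%) of 11760. Counts of list members are therefore given by edgeR with the number that DESeq2 called too. The adjusted p-values of this comparison, and of that with T-high cells below, do not measure a spread between replicate cultures. They cannot be ranked against those from 4 libraries. The clearest difference was in Hox genes, of which 27 of 31 tested were higher in the Cdx2+ E-cadherin+ cells (21 by DESeq2 too) and 1, Hoxc13, was lower by edgeR alone. Hoxb9 was at 160.1 and 188 CPM against 13.2 and 23.2 CPM (log2 fold change 3.38; adjusted p = 6.9e-21 by edgeR and 2.7e-62 by DESeq2) and Hoxb4 at 43.5 and 49.3 CPM against 5.06 and 6.08 CPM (3.13; 4.1e-16 and 6.3e-21). The 6 genes with the largest differences upward were Hoxb5os (4.10), Sall3 (3.65), Hoxb8 (3.48), Hoxb9, Hoxaas3 (3.36) and Hoxa7 (3.34). Hoxb5os and Hoxaas3 are antisense transcripts that overlap Hox genes, and as a strand setting of the counting is not given in the sources used here, their reads and those of their partners may not be told apart.

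**Figure D4:**
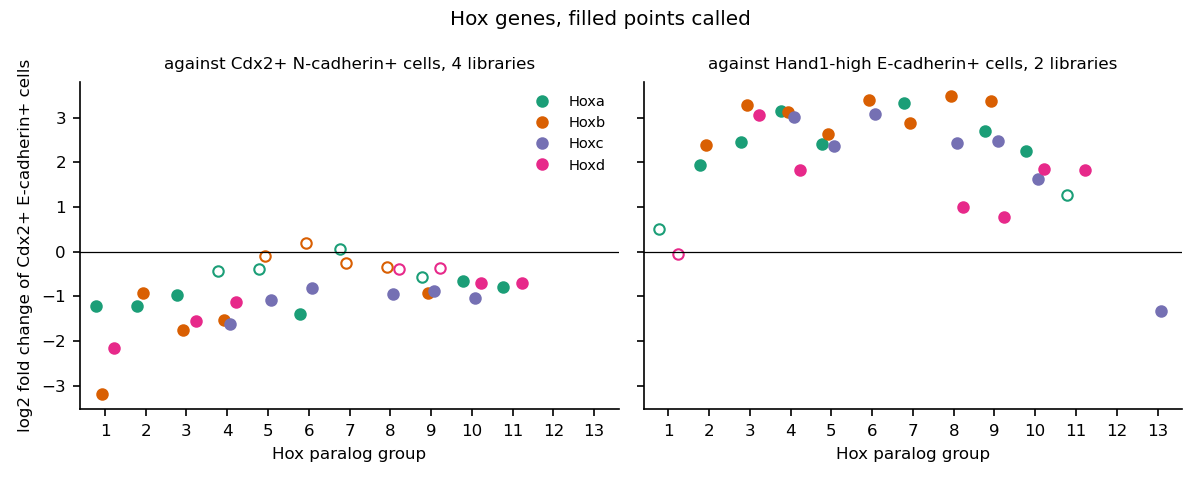
Log2 fold change of each Hox gene in Cdx2+ E-cadherin+ cells (y axis) by paralog group (x axis), colored by cluster, against Cdx2+ N-cadherin+ cells (left, 4 libraries) and Hand1-high E-cadherin+ cells (right, 2 libraries); filled points were called. On the left 22 of 32 genes were called lower, and on the right 27 of 31 higher.

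Of the epithelial genes themselves, 4 of 25 junction and keratin genes were higher than in the Hand1-high E-cadherin+ cells (Cldn3, Ocln, F11r and Rab25, the last 2 by DESeq2 too) and 4 lower by both tools (Krt7, Krt8, Krt18 and Krt19). Of 12 epithelial regulators 5 were higher (Grhl3, Ovol1, Esrp1, Esrp2 and Trp63, all but Esrp2 by DESeq2 too) and 3 lower (Grhl1, Ovol2 and Klf4, of which Klf4 by DESeq2 too). Krt8 was at 812 and 1024 CPM against 1706 and 1807 CPM (log2 fold change -0.87; adjusted p = 2.9e-14 by edgeR and 8.5e-15 by DESeq2). Tfap2a and Tfap2c did not pass the fold of 1.5 (0.47 and 0.44). The surface ectoderm list was divided between Dlx3, Dlx5 and Dlx6, which were higher (Dlx3 by edgeR alone), and Gata2, Gata3 and Msx2, which were lower. Dlx5 was at 46.2 and 46.5 CPM against 3.12 and 2.48 CPM (4.07) and Gata2 at 10.6 and 5.44 CPM against 38.2 and 34.4 CPM (-2.21). Pax3 (4.58), Grhl3 (2.75) and Sox2 (2.16) were higher in both libraries. Of 9 trophoblast genes 5 were lower (4 by DESeq2 too) and none higher, among them Plac1 (-2.95), a placental gene at 10.7 and 4.35 CPM against 81.3 and 38.5 CPM, and Ascl2 (-2.01). The other genes with the largest differences downward were Dusp9 (-2.81), Nup62cl (-2.41), the secretin gene Sct (-2.16), the imprinted H19 (-2.12) and 3830417A13Rik (-2.10). Lateral and extraembryonic mesoderm genes were lower, 6 of 7 (3 by DESeq2 too), with Tagln at 163 and 78.0 CPM against 479.6 and 293 CPM (-1.66). Of 13 FGF feedback genes 8 were higher by edgeR, but only Spry1 (1.18) and Spry2 (0.80) by DESeq2 too, and of 9 caudal epiblast and NMP genes 6 were higher by edgeR and 4 by both (Sox2, Fgf17, Sp8 and Epha5).

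T-high E-cadherin+ cells could be compared at 3 and 12 ng/ml FGF2, with 34 cells in each library, and again with 1 residual degree of freedom. Of 10549 genes tested 497 were higher (4.71%) and 429 lower (4.07%) by edgeR, 8.78% together, and 73 and 99 by DESeq2. Among the genes lowest in the Cdx2+ E-cadherin+ cells were the activin antagonist gene Fst (log2 fold change -4.25; 5.02 and 12.2 CPM against 187 and 126 CPM), Sprr2a3 (-3.71), the IGF-binding protein gene Igfbp3 (-3.27), Tmem185a (-2.58) and Vim (-2.56), and each of them was also lower by DESeq2 (adjusted p = 1.6e-05 for Fst and 3.6e-16 for Vim). Those highest were Cxcl12 (3.63; 57.0 and 46.3 CPM against 4.66 and 3.69 CPM), Upk1a (2.60), the growth factor genes Ptn (2.55) and Igf2 (2.38), Daam1 (2.07) and Arhgap29 (2.04). All 7 surface ectoderm genes tested were higher by edgeR and 3 of them by DESeq2 too (Tfap2a, Tfap2c and Dlx5), and 8 of 12 caudal epiblast and NMP genes were lower, 4 of them by both (Wnt8a, Fgf8, Sp5 and Grsf1). Fgf8 stood at 42.7 and 67.1 CPM against 222 and 314 CPM (-2.30) and Hoxa7 at 187 and 179 CPM against 58.7 and 34.2 CPM (2.0), without overlap, as in 24.5% of all genes with the Cdx2+ E-cadherin+ cells below and 24.2% with them above. Trp63, at 17.5 and 7.62 CPM, had no UMI in the 68 T-high cells. Of 25 junction and keratin genes 14 were higher by edgeR, 6 of them by DESeq2 too, and none was lower. Of 11 epithelial regulators 7 were higher by edgeR, 1 of them by DESeq2 too, and none was lower. Epcam was closer between the groups than Krt8, at 641 and 691 CPM against 398 and 440.3 CPM (0.67), with Krt8 at 285 and 256 CPM in the T-high cells (1.98).

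Within the Cdx2+ E-cadherin+ cells, fewer genes differed between no FGF2 and 12 ng/ml than within the other kept cells. With 1 library per dose, genes were counted by a rule of size and without a test, a level of 50 CPM or more in one of the libraries compared and a ratio of 2 or more. From 0 to 12 ng/ml FGF2, 24 of 3074 genes were past this rule upward (0.781%) and 21 downward (0.683%), against 39 (1.24%) and 114 (3.62%) of 3149 in the other kept cells, which are a mixture of several groups. Genes past it in both were 5 upward (20.8% of the 24 and 12.8% of the 39) and 10 downward (47.6% of the 21 and 8.77% of the 114), counts that leave out genes under 50 CPM in either group. In steps, the numbers upward and downward were 0 and 4 from 0 to 0.75 ng/ml (0 and 0.135% of the genes at that level), 1 and 2 from 0.75 to 3 ng/ml (0.0338 and 0.0675%), and 10 and 1 from 3 to 12 ng/ml (0.328 and 0.0328%). In the other kept cells they were 6 and 49 (0.196 and 1.6%), 4 and 10 (0.133 and 0.333%), and 0 and 0, so the last step held the most genes in the Cdx2+ E-cadherin+ cells and none in the rest. With each cell thinned to 5000 UMIs, 87 genes in place of 45 were past the rule from 0 to 12 ng/ml.

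Among the genes upward, Fgf8 was 7.80 times higher at 12 than at 0 ng/ml (exact conditional 95% interval 5.76 to 10.8, counting error only), from 8.59 to 67.1 CPM. Rspo3 was 5.14 times higher (4.08 to 6.53), Sp5, a Wnt target, 5.08 times (3.93 to 6.65), the RNA-binding protein gene Grsf1 3.84 times (3.44 to 4.29) and Mthfd2, of mitochondrial folate metabolism, 3.46 times (2.88 to 4.18). The other kept cells moved the same way in all of these, by 6.39 times for Fgf8, 4.53 for Rspo3, 2.78 for Sp5, 3.67 for Grsf1 and 1.90 for Mthfd2. Lgals1, the galectin-1 gene, was at 230.3, 369.9, 442 and 745 CPM in the Cdx2+ E-cadherin+ cells and at 609.9, 468, 409 and 521 CPM in the others. Anxa1, an annexin gene, was 3.30 times higher at 12 ng/ml (15.2, 16.7, 10.0 and 50.3 CPM), and Wfdc2, of a secreted protease inhibitor-like protein of epithelia, 2.11 times (84.3, 84.6, 62.1 and 178 CPM), with the whole difference at the last step. Both were past the rule downward in the other kept cells, at 67.9 and 12.8 CPM for Anxa1 and 179.7 and 44.9 CPM for Wfdc2 at 0 and 12 ng/ml. Lgals1, Anxa1 and Wfdc2 were named after their values were seen.

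Downward, Gas1, a surface coreceptor of Hedgehog, was 9.09 times lower at 12 than at 0 ng/ml (6.70 to 12.6), at 79.7, 31.7, 16.4 and 8.76 CPM along the doses. Crabp1, which encodes a retinoic acid-binding protein, was 7.91 times lower (5.94 to 10.7), at 79.9, 43.3, 23.2 and 10.1 CPM, while the other kept cells had 77.2, 80.0, 74.3 and 99.4 CPM. Igfbp5 was 6.79 times lower (5.65 to 8.20), and the transcription factor genes Meis2 and Tshz1 3.95 and 3.13 times (3.21 to 4.90 and 2.54 to 3.88). The levels of all 5 were lower at each higher dose, and Gas1, Igfbp5, Meis2 and Tshz1 were past the rule downward in the other kept cells too. Tfap2a was 2.46 times lower at 12 ng/ml (2.08 to 2.94), and 10.6 times lower in the other kept cells (9.35 to 12.1), where it was under 50 CPM at both doses and so was not counted by the rule. Notch1 was at 112, 79.4, 73.5 and 52.0 CPM, and at 42.3, 49.3, 71.1 and 80.6 CPM in the other kept cells, so its order along the doses was opposite in the 2 groups; it was named after its values were seen.

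**Figure D5:**
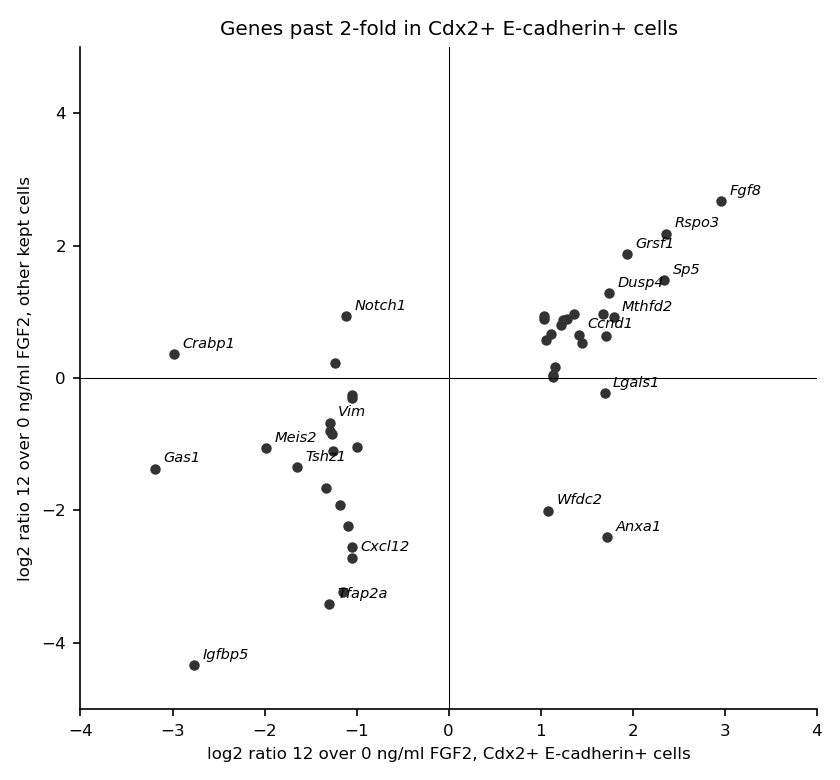
Log2 ratio of CPM at 12 over 0 ng/ml FGF2 in Cdx2+ E-cadherin+ cells (x axis) and in the other kept cells (y axis) for the 45 genes past the rule of size in the former; each point is a gene and each ratio rests on 1 library per dose. Anxa1 and Wfdc2 lie at the lower right, higher in Cdx2+ E-cadherin+ cells and lower in the rest, and Crabp1 and Notch1 at the upper left.

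Among the Cdx2+ E-cadherin+ cells of a library, expression varied most in a few genes of different function. With each cell thinned to 5000 UMIs, the median variance-to-mean ratio over 3461 genes was 1.06, where counting alone gives about 1. The highest ratios, averaged over the libraries, were those of the imprinted Phlda2 (16.2), Sct (12.0), the nuclear RNA Malat1 (11.2), Gm42418 (9.47), Tmsb4x (7.92), Mt1 (6.48), Tagln (6.34), Tpm1 (5.92), Krt8 (5.69) and Lgals1 (5.13). Sct was found in 17.9, 15.6, 17.4 and 13.3% of the thinned cells and Tagln in 13, 10.0, 6.07 and 15.6%, so both rested on a minority. The ratio of Gm42418 was 24.0, 5.93, 2.27 and 5.64 along the doses, so that its average rested on the library without FGF2. Gm42418 overlaps ribosomal RNA sequence and its counts are uncertain for that reason.

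The shares of cells with a UMI showed how widely the markers were spread. Epcam was found in 100% of the cells at every dose, and in 91.8, 90.2, 90.7 and 94.2% after thinning to 5000 UMIs. In the Cdx2+ N-cadherin+ cells Epcam was found in 42.6, 49.0, 49.5 and 46.2%, or 14.2, 19.5, 23.9 and 21.8% after thinning. Tfap2a was found in 76.6, 72.9, 59.1 and 49.1% of the cells, or 27.7, 27.9, 20.6 and 17.3% after thinning. In the Cdx2+ N-cadherin+ cells, which served as the reference and whose median cell held 29108.5, 27373.5, 26286 and 25380.5 UMIs, the shares were 14.2, 9.73, 3.99 and 2.22%. The share in the Cdx2+ E-cadherin+ cells thus lay above the reference at each dose, and it was lowest at 12 ng/ml. Sox2 was found in 38, 49.5, 55.5 and 44.5% of the Cdx2+ E-cadherin+ cells, against 57.4, 47.5, 38.6 and 26.6% of the Cdx2+ N-cadherin+ cells. Its share was thus below the reference without FGF2 and above it at the other doses. Nkx1-2 was found in 6.52, 13.8, 30.4 and 32.9%, where the Cdx2+ N-cadherin+ cells had 48.0, 44.9, 48.1 and 32.9%.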

How the data were processed

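Single-cell libraries were made with 10x Genomics 3′ chemistry, 1 per FGF2 dose. The deposited values are raw UMI counts per gene and barcode of 32285 genes. Per the file headers the authors made these counts with Cell Ranger 5.0.1, whereas the study's methods name an earlier version, and per the labels on mm10. A strand setting is not given in the sources used here.

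Cells with at least 2500 genes and at most 10% mitochondrial UMIs were kept and gated on raw UMIs, and no doublet caller was applied. The gate, the 25 gene lists and the tests were chosen with earlier results of these data known. UMIs were summed per library and group (at least 20 cells) and fitted with edgeR 4.0.16 (R 4.3.3; filterByExpr, TMM, library as a block, quasi-likelihood test, Benjamini-Hochberg adjustment over all genes tested), without the 6 genes of the gate. A call needed an adjusted p under 0.05 and a fold of 1.5. Alternatives were DESeq2 1.42.0, other filters, fold limits, gates and mitochondrial limits, thinning, no library block, no TMM (chosen after seeing the data) and leaving out each library.

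Genes named are members of the lists, the 12 called genes with the largest fold in each direction against the other kept cells and the 6 against each other group (at least 50 CPM, the same direction in every library), the 5 with the largest ratio in each direction from 0 to 12 ng/ml, and the 10 with the largest variance-to-mean ratio (thinned to 5000 UMIs, mean of at least 0.2), with exceptions said in the text. A few genes that this rule selects are not reported here. SD is that of the library differences in log2 CPM. Intervals are exact 95% intervals for counting error only. On counts simulated from these sums, each with 100 genes raised 2-fold and 100 lowered 3-fold, the fit recovered 100 and 100 with 3 false calls for the other kept cells, 99 and 100 with 6 for the Cdx2+ N-cadherin+ cells, 84 and 100 with 9 for the Hand1-high cells and 84 and 100 with 10 for the T-high cells. The simulated libraries had the same gene profile, the same folds and a fixed dispersion, and only genes with high counts were changed. Differences between doses were thus absent, and these counts do not give the error rate of the calls in the real data. Gene positions (GRCm38) were taken from GENCODE vM21, in which 32235 genes matched, and promoter windows from RefSeq (GRCm38.p6). Calculations used Python 3.11.15, numpy 2.4.6, scipy 1.17.1 and pandas 2.3.3.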

Additional observations from a re-analysis of the deposited data

Results flagged for a closer look

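Of 28 measures examined across the 4 libraries, 1 had a library far from the others. Vim stood at 59.6 CPM in the Cdx2+ E-cadherin+ cells without FGF2 and at 27.5, 21.6 and 24.4 CPM with 0.75, 3 and 12 ng/ml. Chance alone is expected to mark about 1 in 20 such groups.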

How the results depend on the processing

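Against the other kept cells, 1089 genes were higher and 956 lower. These counts were 2212 and 2425 with no fold limit, 639 and 557 with a fold of 2, and 703 and 551 with each cell thinned to 5000 UMIs, where fewer genes (11252) could be tested. Leaving out each library gave 718 to 1303 higher and 609 to 1056 lower, the lowest without 3 ng/ml. DESeq2, no TMM, no filter on low counts, 5% mitochondrial UMIs, the other gates, the range of 10000 to 60000 UMIs and no library block stayed within 1.5 times of both counts. Of 312 values of 24 named genes under 13 alternatives none turned its direction, and 4 lost the call, all without the library block (Cxcl12 at 1.91, Tfap2a at 1.65, Sprr2a3 at -2.73 and Fgf8 at -1.77). Against the Cdx2+ N-cadherin+ cells, thinning gave 1206 and 775 in place of 1967 and 1271, and leaving out each library 1769 to 2056 and 1156 to 1346. Against the Hand1-high cells, DESeq2 gave 328 and 440 and thinning 341 and 439 in place of 857 and 979. Against the T-high cells, DESeq2 gave 73 and 99, thinning 94 and 89 and no TMM 331 higher in place of 497 and 429. Leaving out a library of these 2 comparisons leaves no residual degrees of freedom and was not run. The cause of these shifts was not tested. The Cdx2+ E-cadherin+ shares at 0, 0.75, 3 and 12 ng/ml were 4.47, 7.17, 4.44 and 2.50% thinned to 10000 UMIs before the gate (1679, 2706, 2115 and 2397 cells), 18.1, 26.8, 16.0 and 9.77% with 1 UMI of Cdx2 and Cdh1, and 4.07, 7.56, 5.04 and 3.03% with 4. Genes past the rule of size from 0 to 12 ng/ml were 130.0 with 20 CPM, 170.0 with a ratio of 1.5 and 87 thinned, in place of 45. The fit pairs the groups of a library through the library block, and without it 887 genes were higher and 793 lower than in the other kept cells. Of the lists, it then called 4 surface ectoderm and 4 trophoblast genes (7 and 7 with the block), 1 Wnt ligand (3), 1 BMP gene (2) and 0 dissociation and stress genes (2) higher. It called 4 caudal epiblast and NMP (8), 2 FGF feedback (5), 2 CDK inhibitor and D cyclin (4), 2 basement membrane (1), 1 surface ectoderm, hemato-endothelial, epiblast and BMP gene each (2 each), and 0 endoderm, primordial germ cell and Wnt ligand genes (1 each) lower. No other list count moved by over 1.5 times without the block. With 4 UMIs of Cdx2 and Cdh1, 0 surface ectoderm, BMP ligand and BMP target genes were lower and 0 primordial germ cell genes higher. With 1 UMI, 0 S phase and G2/M genes were higher. At 5% mitochondrial UMIs, 0 surface ectoderm and primordial germ cell genes were lower. Thinned to 5000 UMIs, 0 surface ectoderm, primordial germ cell, BMP ligand, BMP target and endoderm genes were lower. Levels of a few CPM rest on few UMIs per library, and with 1 library per dose a difference between doses cannot be told apart from one between cultures.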

Other observations

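In the library treated with 30 nM AZD4547, which the rule leaves out, 6 of 1701 kept cells met the same criteria (0.353%, exact binomial 95% interval 0.130 to 0.766%). These 6 cells were too few to be summed and compared.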
